A study of Mus musculus with 4 samples.

Results

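The 54 genes described here encode proteins of mitosis and the spindle: the mitotic cyclins and kinases, the spindle checkpoint, the chromosomal passenger complex, the kinetochore, the mitotic kinesins, condensin and the cytokinesis machinery. They were chosen by the function of their products, and their symbols were matched to the 17621 genes of the deposited tables by Entrez gene ID. All 54 were found, and all 54 had a mean of at least 1 CPM (the count scaled to library size, with TMM factors from edgeR) over the 4 libraries. RNA came from cultured primary neural stem cells that were taken from the cortex of mice at birth (P0). The day 3 iKO and day 3 Ctrl libraries were made after withdrawal of EGF and bFGF in differentiation medium, and the day 0 iKO and day 0 Ctrl libraries were made in growth medium that contained both factors. The iKO cells had the genotype cmv-cre-ert,seh1 f/f, and the Ctrl cells had the genotype Seh1 f/f, so both carried floxed Seh1 alleles and the iKO cells also carried a Cre-ERT recombinase, named in the label after the CMV promoter. An inducer of the recombinase, its own effect on the cells and the number of animals behind each culture are not given in the sources that were used.

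A cell enters mitosis when cyclin A2 and B-type cyclins activate the kinase Cdk1, and it leaves mitosis when the anaphase-promoting complex (APC/C), with Cdc20 and Ube2c, sends cyclin B and securin to the proteasome. Most of the genes involved are transcribed in G2 and M phase and repressed in resting cells. The product of Seh1l, Seh1, belongs to the nuclear pore Y complex, which in human cells also sits at kinetochores during mitosis. It is also a subunit of GATOR2, which acts on amino acid signalling to mTORC1. In bulk RNA, fewer dividing cells and less of these RNAs per dividing cell cannot be told apart.

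Each group was 1 library, with 19611788 to 21040590 expected counts, so no test between groups was made and intervals cover counting error only. Seh1l was at 11 CPM in iKO cells and 33.2 CPM in Ctrl cells at day 3, and at 19.2 CPM in iKO cells and 40.3 CPM in Ctrl cells at day 0. It was 3.01-fold (2.58 to 3.54) lower in iKO cells at day 3 and 2.10-fold (1.86 to 2.37) lower at day 0. All 10 neural stem and progenitor markers were detected in each library, and their summed level was 4913 CPM in iKO cells and 5043 CPM in Ctrl cells at day 3, and 6095 CPM in iKO cells and 5998 CPM in Ctrl cells at day 0. The log2 ratio used below is log2 of (CPM + 1) in the first-named library over (CPM + 1) in the other, and a gene was called when that ratio reached 2-fold among the 12976 genes compared, whose mean over the libraries was 1 CPM or more. Folds without a log are ratios of CPM, with an exact 95% interval. Single progenitor markers differed more than their sum. At day 3 Prom1 was called higher (1.42) and Hes5 lower (-2.79) in iKO cells, beside 6.27% and 4.76% of all genes. At day 0 Hes5 was called lower (-1.02), beside 0.331% of all genes. Of the 10 markers 8 lay below 0 at day 0, beside 56.5% of all genes.

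The mitosis and spindle genes took up a much smaller part of the RNA at day 3 than at day 0 in both genotypes, and a smaller part in iKO than in Ctrl cells on both days. Their summed level was 652 CPM in iKO cells and 735 CPM in Ctrl cells at day 3. At day 0 it was 6525 CPM in iKO cells and 10899 CPM in Ctrl cells. As shares of all counts these were 0.0628% (0.0617% to 0.0639%) in iKO and 0.0748% (0.0736% to 0.0761%) in Ctrl cells at day 3, and 0.689% (0.686% to 0.693%) in iKO and 1.05% (1.05% to 1.06%) in Ctrl cells at day 0. The sum was 1.13-fold (1.10 to 1.15) lower in iKO than in Ctrl cells at day 3, and 1.67-fold (1.66 to 1.68) lower at day 0. Day 3 was 10-fold (9.82 to 10.2) below day 0 in iKO cells and 14.8-fold (14.6 to 15.1) below it in Ctrl cells.

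**Figure D1:**
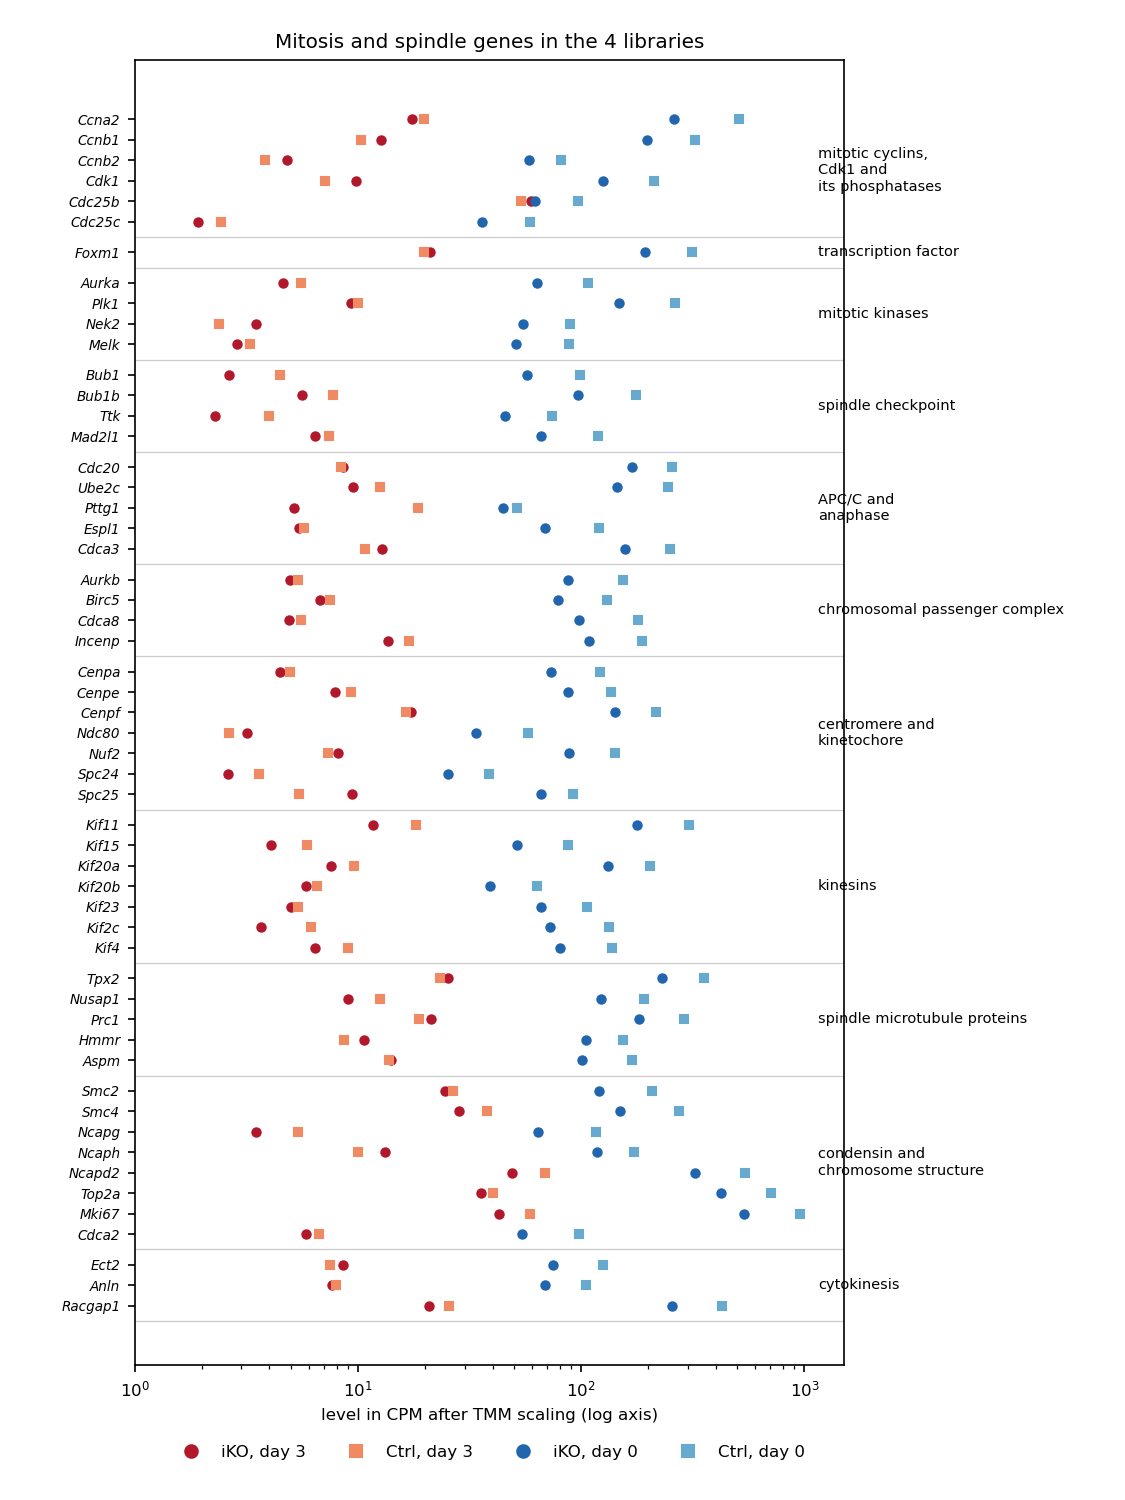
Level of each of the 54 genes in CPM after TMM scaling (log axis), grouped by role, with 1 point per library: red circles for iKO and orange squares for Ctrl cells at day 3, dark blue circles for iKO and light blue squares for Ctrl cells at day 0. At day 0 every iKO point lies left of its Ctrl point, and the day 3 points lie well to the left of both except for Cdc25b, with 59.6 CPM in iKO cells at day 3 against 62.0 CPM at day 0.

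In growth medium every one of the 54 genes was lower in iKO than in Ctrl cells, by a similar small amount. The log2 ratios ran from -0.95 for Ccna2 to -0.20 for Pttg1, with a median of -0.73 and quartiles of -0.78 and -0.64, beside a median of -0.06 over all genes compared. None reached 2-fold, in a comparison where 0.331% of all genes were called lower and 2.67% higher. All 54 lay below 0, as did 56.5% of all genes, and all 54 counting intervals of the ratio lay below 1, as did 39.5% of all genes, while 25.8% of all genes had one above 1. Nearest to the 2-fold threshold was Ccna2, at 1.94-fold (1.88 to 2.0) lower.

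At day 3 the genotypes differed little in these genes, and not in 1 direction. The median log2 ratio was -0.15, beside -0.01 over all genes, with 36 genes below 0 and 18 above; below 0 were 51.3% of all genes. The counting interval lay below 1 for 18 genes, above 1 for 6 (Ccnb1, Cdk1, Cdc25b, Spc25, Hmmr and Ncaph) and held 1 for 30, while it lay below 1 for 35.6% and above 1 for 34.5% of all genes. Only Pttg1 was called, at -1.67 on the log2 scale, in a comparison where 4.76% of all genes were called lower and 6.27% higher. The next lowest were Kif2c at -0.61 and Ttk at -0.60, and the highest were Spc25 at 0.69, Cdk1 at 0.41 and Nek2 at 0.41. Above 0 were 15 genes when scaled by library totals and 16 in FPKM, and with the most abundant transcript alone 25 lay above 0 and 28 below.

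**Figure D2:**
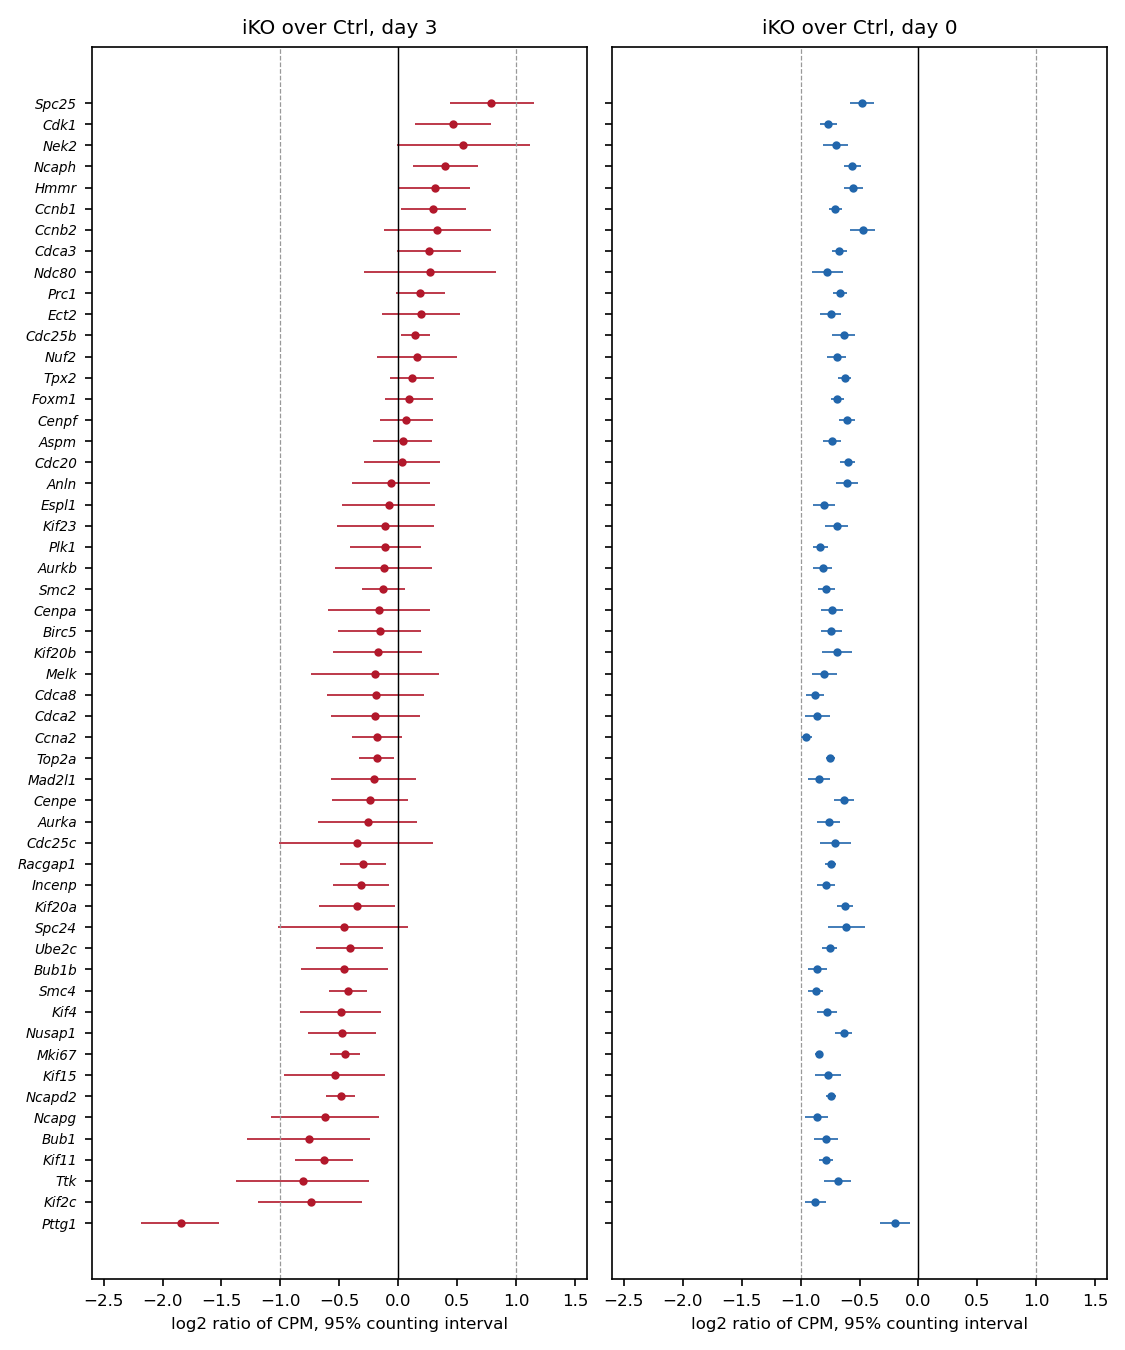
Log2 ratio of CPM, iKO over Ctrl, for each gene at day 3 (left, red) and day 0 (right, blue), without a pseudocount; lines are exact 95% counting intervals and dashed lines mark 2-fold. At day 0 all 54 points lie below 0, and at day 3 they lie on both sides of 0 with wider intervals, with Pttg1 alone past 2-fold.

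Across growth factor withdrawal all but 1 of the genes were called lower at day 3 in each genotype, and the exception in both was Cdc25b. In iKO cells 53 of 54 were called lower, beside 11.4% of all genes, with a median log2 ratio of -3.45. In Ctrl cells 53 of 54 were called lower, beside 15.1% of all genes, with a median of -4.01. None was called higher, beside 11.2% of all genes in iKO and 14.6% in Ctrl cells. All 54 lay below 0 in each genotype, as did 50.4% of all genes in iKO and 51.0% in Ctrl cells. The counting interval lay below 1 for 53 members in iKO and 54 in Ctrl cells, beside 40.7% of all genes in iKO and 43.2% in Ctrl cells. It lay above 1 for 0 members in iKO and 0 in Ctrl cells, beside 40.1% of all genes in iKO and 40.6% in Ctrl cells. The median over all genes was -0.01 in iKO and -0.02 in Ctrl cells. The lowest ratios in iKO cells were those of Cdc20 (-4.15), Cdca8 (-4.07) and Bub1 (-4.00), and in Ctrl cells those of Ccnb1 (-4.84), Cdc20 (-4.78) and Cdca8 (-4.78). Just inside the threshold was Smc2 at -2.25 in iKO cells and Pttg1 at -1.43 in Ctrl cells, and outside it was Cdc25b at -0.06 in iKO and -0.83 in Ctrl cells. Over the 54 genes the log2 ratios in iKO and in Ctrl cells had a Pearson r of 0.85 and a Spearman rho of 0.85; this is across genes, which are not independent replicates, and the ratios share their scaling factors.

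The promoters of these genes are shown because the members were low together at day 3. Sequences are from RefSeq (GRCm38.p6), in a table with 250 bases before and 50 after each transcription start, which held 44 of the 54 genes. In lower case below are the 120 bases before the start on the gene's strand, 5′ to 3′. Capitals mark the core of the cell cycle homology region (TTTGAA, or TTCAAA on the other strand), which the MuvB complex binds through Lin54, and the NF-Y box (CCAAT, or ATTGG on the other strand). Cdk1 (chr10:69352913-69353032, minus strand), Ube2c (chr2:164769809-164769928, plus), Cdc20 (chr4:118437344-118437463, minus) and Top2a (chr11:99024190-99024309, minus) hold both, while Ccnb2 (chr9:70421555-70421674, minus) and Ccnb1 (chr13:100786487-100786606, minus) hold NF-Y boxes alone in this window. Ccnb2 has the core outside the bases shown, at -167 and just past the start. Ccnb1 has no match to TTTGAA or TTCAAA in the 250 bases before and 50 after its start. Variants of these letters were not searched, so a gene without a match can still hold another form of the core. Cdc25b (chr2:131186828-131186947, plus) and Pttg1 (chr11:43425982-43426101, minus) are the members that stood apart in level: Cdc25b holds 1 NF-Y box and Pttg1 neither motif in this window. Their starts in the table lie inside the outermost annotated bounds of the gene.
Cdk1: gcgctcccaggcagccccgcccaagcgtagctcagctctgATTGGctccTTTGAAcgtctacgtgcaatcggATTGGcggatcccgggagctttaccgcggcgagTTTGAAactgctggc
Ube2c: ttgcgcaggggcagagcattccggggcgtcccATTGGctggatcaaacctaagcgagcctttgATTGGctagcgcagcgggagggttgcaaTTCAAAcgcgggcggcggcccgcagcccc
Cdc20: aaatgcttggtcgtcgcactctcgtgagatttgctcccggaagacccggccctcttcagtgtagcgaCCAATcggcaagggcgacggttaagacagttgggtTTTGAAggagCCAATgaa
Top2a: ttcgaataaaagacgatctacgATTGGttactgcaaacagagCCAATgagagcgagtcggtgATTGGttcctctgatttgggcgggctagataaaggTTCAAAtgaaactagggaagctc
Ccnb2: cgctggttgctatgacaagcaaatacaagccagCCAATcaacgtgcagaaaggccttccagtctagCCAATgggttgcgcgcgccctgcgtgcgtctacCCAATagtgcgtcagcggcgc
Ccnb1: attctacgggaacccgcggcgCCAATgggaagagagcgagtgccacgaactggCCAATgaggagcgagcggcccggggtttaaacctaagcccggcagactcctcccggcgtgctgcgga
Cdc25b: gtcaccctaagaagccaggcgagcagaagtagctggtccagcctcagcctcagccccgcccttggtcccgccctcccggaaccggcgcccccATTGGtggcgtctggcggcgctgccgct
Pttg1: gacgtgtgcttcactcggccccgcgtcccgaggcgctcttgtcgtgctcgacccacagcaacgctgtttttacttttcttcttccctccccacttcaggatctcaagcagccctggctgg

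Counted back from the base just before the start as -1, and by the first base of each match, Cdk1 had the TTTGAA core at -71 and -15 and NF-Y boxes at -80 and -48. Ube2c had the core at -29 and boxes at -88 and -57, Cdc20 the core at -18 and boxes at -53 and -8, and Top2a the core at -23 and boxes at -98, -78 and -58. In the whole table windows, TTTGAA was found in 32 of 44 members (72.7%), against 36.6% of 101 other mitosis genes, 17.5% of 40 DNA replication genes and 13.8% of all 10349 compared genes that the table holds. CCAAT was found in 32 of 44 members (72.7%), against 59.4% of the other mitosis genes, 60.0% of the replication genes, 68.8% of 16 p53 target genes and 43.5% of those 10349 genes. Both motifs were found in 27 members (61.4%), against 26.7% of the other mitosis genes, 15.0% of the replication genes, 6.25% of the p53 target genes and 7.04% of the 10349. The E2F cores TTTCGCGC, GGCGGGAA and TTTGGCGC were found in 1, 0 and 2 of 44 members, against 6, 7 and 7 of 40 replication genes and 0.734%, 4.73% and 1.09% of the 10349 genes. All motifs were searched on both strands, and a TTTGAA and a CCAAT match can share an edge base. The 12 members without TTTGAA in the window were Ccnb1, Cdc25b, Nek2, Melk, Bub1, Mad2l1, Pttg1, Birc5, Cenpe, Nuf2, Nusap1 and Ncaph. The log2 ratios of members with and without it were close: medians of -3.50 with and -3.34 without for day 3 over day 0 in iKO cells, -4.02 with and -3.97 without in Ctrl cells, and -0.74 with and -0.69 without for iKO over Ctrl at day 0. A match is a run of letters and says nothing of what binds there.

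**Figure D3:**
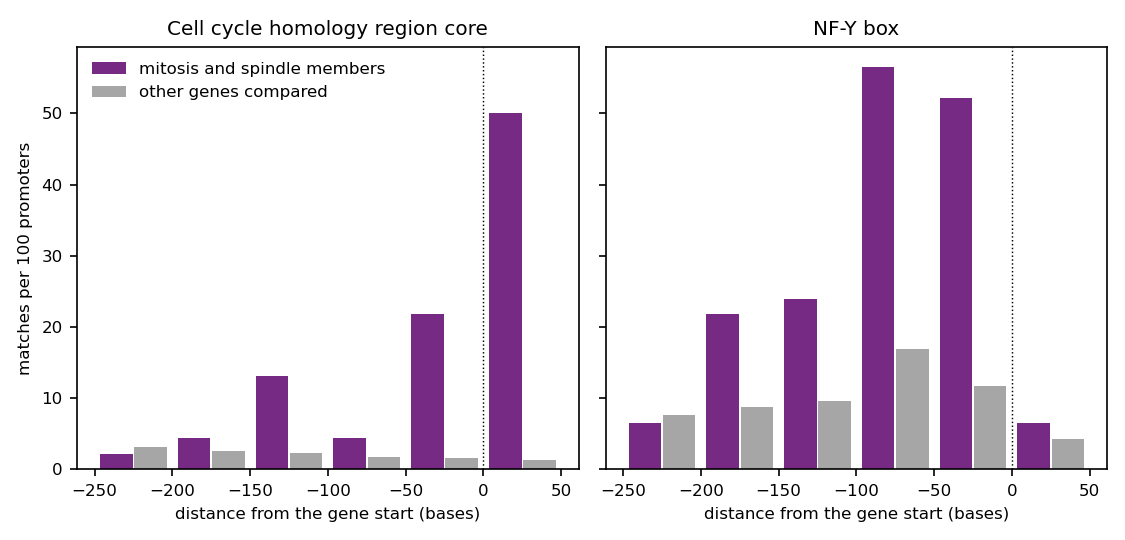
Matches per 100 promoters of the cell cycle homology region core (left) and the NF-Y box (right) by distance from the gene start in bins of 50 bases, for the members (purple, 46 promoters of 44 genes) and the other compared genes of the same table (grey, 13293 promoters). For the core, 33 of the 44 matches in members lie within 50 bases of the start, with 50.0 matches per 100 promoters in the bin just after it against 1.24 in the grey set.

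Among the mitotic cyclins and their kinase, Ccnb1, Ccna2 and Cdk1 differed more between days than the median member in both genotypes. Ccnb2 did so in Ctrl cells alone. For day 3 over day 0 the log2 ratio of Cdk1 was -3.54 in iKO and -4.71 in Ctrl cells, and that of Ccnb2 was -3.35 in iKO and -4.09 in Ctrl cells, beside medians of -3.45 in iKO and -4.01 in Ctrl cells. Ccnb1, cyclin B1, had 12.7 CPM in iKO cells against 10.3 CPM in Ctrl cells at day 3. At day 0 Ccnb1 was at 197 CPM in iKO cells and 322 CPM in Ctrl cells. Cdk1, the kinase it activates, had 9.81 CPM in iKO cells against 7.11 CPM in Ctrl cells at day 3. At day 0 Cdk1 was at 125 CPM in iKO cells and 212 CPM in Ctrl cells. In both genes the iKO library was the lower of the pair at day 0, by 1.63-fold (1.57 to 1.7) for Ccnb1 and 1.7-fold (1.62 to 1.78) for Cdk1, and the higher of the pair at day 3, by 1.23-fold (1.02 to 1.49) and 1.38-fold (1.1 to 1.73). Ccnb2, cyclin B2, had 4.82 CPM in iKO cells against 3.83 CPM in Ctrl cells at day 3, and 58.3 CPM in iKO cells against 81 CPM in Ctrl cells at day 0; its interval at day 3 held 1. Ccna2, the cyclin of S phase and mitotic entry, had 17.4 CPM in iKO cells against 19.7 CPM in Ctrl cells at day 3. At day 0 Ccna2 was at 262 CPM in iKO cells and 507 CPM in Ctrl cells. It had the largest difference between genotypes at day 0 of all members, and at day 3 its interval held 1. Day 3 was lower than day 0 by 15.6-fold (13.7 to 17.8) in iKO and 31.3-fold (27.3 to 36.1) in Ctrl cells for Ccnb1, by 12.7-fold (11 to 14.9) in iKO and 29.8-fold (25.2 to 35.5) in Ctrl cells for Cdk1, and by 15-fold (13.5 to 16.9) in iKO and 25.7-fold (23.3 to 28.5) in Ctrl cells for Ccna2. Cdc25c, a phosphatase that activates Cdk1 at mitotic entry, was the lowest member of the role at day 3, at 1.91 CPM in iKO cells and 2.44 CPM in Ctrl cells, against 36 CPM in iKO cells and 58.7 CPM in Ctrl cells at day 0.

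Cdc25b was the member whose level stayed closest to that of growth medium. It encodes the Cdc25 phosphatase that acts on Cdk1 and cyclin B at the G2/M transition, and it lies at chr2:131186436-131198511. The gene had 59.6 CPM in iKO cells against 53.9 CPM in Ctrl cells at day 3. At day 0 Cdc25b was at 62 CPM in iKO cells and 96.4 CPM in Ctrl cells. In iKO cells day 3 was 1.04-fold (0.961 to 1.13) lower, an interval that holds 1, and in Ctrl cells day 3 was 1.79-fold (1.66 to 1.93) lower. At day 3 it had 96% of its day 0 level in iKO cells and 55.9% in Ctrl cells, while no other member except Pttg1 had more than 20.3% in iKO or 13.9% in Ctrl cells. Per length, in the deposited FPKM (fragments per kilobase of transcript, scaled to the reads of the library), Cdc25b was the highest member in iKO cells at day 3, at 18.8 FPKM. With its most abundant transcript alone the log2 ratio of day 3 to day 0 was 0.02 in iKO and -1.11 in Ctrl cells.

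Foxm1, the transcription factor that activates many genes of G2 and M phase, had 21 CPM in iKO cells against 19.8 CPM in Ctrl cells at day 3. At day 0 Foxm1 was at 193 CPM in iKO cells and 312 CPM in Ctrl cells. Its counting interval for the genotypes held 1 at day 3 and lay below 1 at day 0, at 1.61-fold (1.55 to 1.68) lower in iKO cells. Among the mitotic kinases, Plk1, which acts from centrosome maturation to cytokinesis, had 9.28 CPM in iKO cells against 9.998 CPM in Ctrl cells at day 3. At day 0 Plk1 was at 147 CPM in iKO cells and 262 CPM in Ctrl cells. Aurka, the spindle pole kinase, had 4.61 CPM in iKO cells against 5.52 CPM in Ctrl cells at day 3. At day 0 Aurka was at 63.5 CPM in iKO cells and 107 CPM in Ctrl cells. Both were lower in iKO cells at day 0, by 1.78-fold (1.71 to 1.86) for Plk1 and 1.69-fold (1.58 to 1.81) for Aurka, and had intervals that held 1 at day 3. Nek2, a kinase of centrosome separation, had 3.5 CPM in iKO cells against 2.39 CPM in Ctrl cells at day 3. At day 0 Nek2 was at 54.7 CPM in iKO cells and 89 CPM in Ctrl cells. It kept the smallest share of its day 0 level of any member in Ctrl cells, 2.68%, against 6.39% in iKO cells, and its day 3 values rest on 66 counts in iKO and 48 counts in Ctrl cells. Melk, a maternal embryonic leucine zipper kinase, was 1.74-fold (1.61 to 1.88) lower in iKO cells at day 0, and its interval at day 3 held 1.

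The spindle checkpoint holds the APC/C back until all kinetochores are attached. All 4 of its genes were lower in iKO cells on both days, with a median log2 ratio of -0.49 at day 3 and -0.80 at day 0; with the most abundant transcript alone, Bub1b was at 0.05 and Mad2l1 at 0.04 at day 3. Bub1b, which encodes BubR1, had 5.62 CPM in iKO cells against 7.71 CPM in Ctrl cells at day 3, and 96.6 CPM in iKO cells against 175 CPM in Ctrl cells at day 0; it was 1.37-fold (1.06 to 1.77) lower in iKO cells at day 3 and 1.81-fold (1.72 to 1.91) lower at day 0. Bub1, a checkpoint kinase, had 2.65 CPM in iKO cells against 4.48 CPM in Ctrl cells at day 3, and 57.3 CPM in iKO cells against 98.7 CPM in Ctrl cells at day 0, 1.69-fold (1.18 to 2.44) lower in iKO cells at day 3. Ttk, the kinase Mps1, had 2.28 CPM in iKO cells against 3.98 CPM in Ctrl cells at day 3, and 45.7 CPM in iKO cells against 73.5 CPM in Ctrl cells at day 0, 1.75-fold (1.19 to 2.59) lower in iKO cells at day 3. The day 3 values of Bub1 and Ttk rest on 43 to 90 counts, and the deposited estimates put those counts on different transcript models in the iKO and Ctrl libraries. Mad2l1, which binds Cdc20 in the checkpoint complex, had 6.41 CPM in iKO cells against 7.41 CPM in Ctrl cells at day 3, and 66.2 CPM in iKO cells against 119 CPM in Ctrl cells at day 0, and its interval at day 3 held 1.

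Of the genes of the APC/C and anaphase, Cdc20, the co-activator that targets securin and cyclin B, had 8.53 CPM in iKO cells against 8.36 CPM in Ctrl cells at day 3. At day 0 Cdc20 was at 169 CPM in iKO cells and 256 CPM in Ctrl cells. At day 3 the genotypes were 1.02-fold (0.818 to 1.28) apart, an interval that holds 1, and at day 0 Cdc20 was 1.52-fold (1.45 to 1.58) lower in iKO cells. Ube2c, the ubiquitin-conjugating enzyme of the APC/C, had 9.44 CPM in iKO cells against 12.5 CPM in Ctrl cells at day 3. At day 0 Ube2c was at 145 CPM in iKO cells and 245 CPM in Ctrl cells. It had the highest level per length of all members at day 0, at 169 FPKM in iKO and 260 FPKM in Ctrl cells. Espl1, separase, was at 5.41 CPM in iKO cells and 5.72 CPM in Ctrl cells at day 3, and at 69 CPM in iKO cells and 121 CPM in Ctrl cells at day 0. Cdca3, which acts in the degradation of Wee1 at mitotic entry, had 12.8 CPM in iKO cells against 10.7 CPM in Ctrl cells at day 3. At day 0 Cdca3 was at 157 CPM in iKO cells and 249.8 CPM in Ctrl cells.

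Pttg1, which encodes securin, the inhibitor of separase, stood apart from the other members. It lies at chr11:43420244-43427463, and it had 5.14 CPM in iKO cells against 18.5 CPM in Ctrl cells at day 3. At day 0 Pttg1 was at 44.8 CPM in iKO cells and 51.5 CPM in Ctrl cells. The iKO library was 3.6-fold (2.87 to 4.55) lower than Ctrl at day 3 and 1.15-fold (1.05 to 1.26) lower at day 0, which made it the member with the largest difference between genotypes at day 3 and the smallest at day 0. In Ctrl cells at day 3 it kept 35.9% of its day 0 level and was the highest member per length, at 25.8 FPKM, against 7.20 FPKM in iKO cells. Day 3 was 8.71-fold (7.06 to 10.8) lower than day 0 in iKO cells and 2.78-fold (2.47 to 3.14) lower in Ctrl cells. In the authors' deposited table for day 3, which lists 911 genes higher and 863 lower in iKO cells, Pttg1 was the only member, with a log2 ratio of -1.84 and an FDR of 3.61e-38 that compares 2 libraries. Its counts lay on 4 transcript models that do not match between the libraries: at day 3 the model with 81.7% of the iKO counts held 0% of the Ctrl counts, and the model with 62.4% of the Ctrl counts held 0% of the iKO counts. Summed over the models, the log2 ratio at day 3 was between -1.21 and -1.83 under the other alternatives, and with the most abundant transcript alone it was -3.65.

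The chromosomal passenger complex corrects wrong attachments and later acts at the midzone, and its 4 subunits kept close to one another in the ratio of iKO to Ctrl. Their log2 ratios of iKO to Ctrl ran from -0.29 to -0.10 at day 3 and from -0.87 to -0.73 at day 0. For day 3 over day 0 they were further apart. Those ratios ran from -4.07 for Cdca8 to -2.90 for Incenp in iKO cells, and from -4.78 to -3.39 for the same genes in Ctrl cells. Aurkb, its kinase, had 4.93 CPM in iKO cells against 5.37 CPM in Ctrl cells at day 3. At day 0 Aurkb was at 87 CPM in iKO cells and 153 CPM in Ctrl cells. Birc5, survivin, had 6.73 CPM in iKO cells against 7.51 CPM in Ctrl cells at day 3. At day 0 Birc5 was at 78.4 CPM in iKO cells and 131 CPM in Ctrl cells. Cdca8, borealin, had 4.88 CPM in iKO cells against 5.57 CPM in Ctrl cells at day 3. At day 0 Cdca8 was at 97.6 CPM in iKO cells and 179 CPM in Ctrl cells. Incenp, the scaffold, had 13.6 CPM in iKO cells against 16.9 CPM in Ctrl cells at day 3. At day 0 Incenp was at 108 CPM in iKO cells and 186 CPM in Ctrl cells. In iKO cells at day 0 they were lower by 1.76-fold (1.66 to 1.86) for Aurkb, 1.67-fold (1.57 to 1.77) for Birc5, 1.83-fold (1.74 to 1.94) for Cdca8 and 1.73-fold (1.64 to 1.82) for Incenp. At day 3 the interval held 1 for all but Incenp, which was 1.24-fold (1.05 to 1.47) lower in iKO cells.

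Of the Ndc80 complex, which binds microtubules at the kinetochore as a tetramer, only Spc25 had a day 3 interval that excluded 1. Spc25 had 9.38 CPM in iKO cells against 5.42 CPM in Ctrl cells at day 3, and 65.8 CPM in iKO cells against 91.8 CPM in Ctrl cells at day 0, and it was 1.73-fold (1.36 to 2.22) higher in iKO than in Ctrl cells at day 3. That was the largest such value of the 54 genes, and at day 0 Spc25 was 1.4-fold (1.3 to 1.5) lower in iKO cells. Its partner Spc24 was at 2.6 CPM in iKO cells and 3.58 CPM in Ctrl cells at day 3, 1.38-fold (0.946 to 2.02) lower in iKO cells with an interval that holds 1. Ndc80 had 3.18 CPM in iKO cells against 2.64 CPM in Ctrl cells at day 3. At day 0 Ndc80 was at 33.9 CPM in iKO cells and 57.8 CPM in Ctrl cells. Nuf2 had 8.16 CPM in iKO cells against 7.31 CPM in Ctrl cells at day 3. At day 0 Nuf2 was at 87.6 CPM in iKO cells and 142 CPM in Ctrl cells. The intervals of Ndc80 and Nuf2 held 1 at day 3 and lay below 1 at day 0. At day 3 the interval of iKO over Ctrl was 0.82 to 1.78 for Ndc80 and 0.885 to 1.41 for Nuf2, and that of Spc25 overlapped both. The day 3 values rest on 49 counts in iKO and 72 in Ctrl cells for Spc24, and on 60 and 53 for Ndc80. Cenpa, the centromeric histone H3 variant, had 4.45 CPM in iKO cells against 4.97 CPM in Ctrl cells at day 3. At day 0 Cenpa was at 73.3 CPM in iKO cells and 122 CPM in Ctrl cells. Cenpf, a large kinetochore protein, had 17.2 CPM in iKO cells against 16.4 CPM in Ctrl cells at day 3. At day 0 Cenpf was at 142 CPM in iKO cells and 216 CPM in Ctrl cells. Cenpe, the kinetochore kinesin, was 1.55-fold (1.46 to 1.64) lower in iKO cells at day 0, and its interval at day 3 held 1.

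All 7 kinesins had log2 ratios of iKO to Ctrl below 0 on both days, with a median of -0.43 at day 3 and -0.75 at day 0, and at day 3 the interval lay below 1 for Kif11, Kif15, Kif20a, Kif2c and Kif4. Kif11, the plus-end motor that separates the spindle poles, had 11.7 CPM in iKO cells against 18.1 CPM in Ctrl cells at day 3. At day 0 Kif11 was at 177 CPM in iKO cells and 304 CPM in Ctrl cells. It was 1.55-fold (1.3 to 1.84) lower in iKO cells at day 3 and 1.72-fold (1.65 to 1.79) lower at day 0. Kif2c, the depolymerase MCAK, had 3.66 CPM in iKO cells against 6.12 CPM in Ctrl cells at day 3, and 72.7 CPM in iKO cells against 133 CPM in Ctrl cells at day 0, and it was 1.67-fold (1.24 to 2.28) lower in iKO cells at day 3. Kif20b, a kinesin of cytokinesis, had 5.83 CPM in iKO cells against 6.57 CPM in Ctrl cells at day 3. At day 0 Kif20b was at 39.1 CPM in iKO cells and 63.1 CPM in Ctrl cells. It was the lowest member per length at day 0, at 8.59 FPKM in iKO and 12.5 FPKM in Ctrl cells. Kif23, the motor of centralspindlin, was 1.62-fold (1.51 to 1.73) lower in iKO cells at day 0, with an interval that held 1 at day 3.

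Of the 5 spindle microtubule proteins, 4 had a log2 ratio above 0 at day 3, while all 5 lay below 0 at day 0; Aspm, at 0.04, turned to -0.04 with library totals, -0.08 with FPKM and -0.41 with its most abundant transcript. Tpx2, which activates Aurora A and nucleates microtubules, had 25.2 CPM in iKO cells against 23.2 CPM in Ctrl cells at day 3. At day 0 Tpx2 was at 229 CPM in iKO cells and 354 CPM in Ctrl cells. Prc1, which bundles antiparallel microtubules, had 21.3 CPM in iKO cells against 18.7 CPM in Ctrl cells at day 3. At day 0 Prc1 was at 182 CPM in iKO cells and 289 CPM in Ctrl cells. Hmmr, a spindle pole protein, had 10.7 CPM in iKO cells against 8.61 CPM in Ctrl cells at day 3, and 105 CPM in iKO cells against 153 CPM in Ctrl cells at day 0, and it was 1.24-fold (1.01 to 1.53) higher in iKO cells at day 3 and 1.47-fold (1.39 to 1.55) lower at day 0. Aspm, a spindle pole protein of dividing neural progenitors whose loss causes microcephaly in humans, had 14.1 CPM in iKO cells against 13.7 CPM in Ctrl cells at day 3. At day 0 Aspm was at 101 CPM in iKO cells and 168 CPM in Ctrl cells. The intervals at day 3 held 1 for Tpx2, Prc1 and Aspm. Nusap1 was the exception, 1.39-fold (1.14 to 1.7) lower in iKO cells at day 3 and 1.55-fold (1.48 to 1.63) lower at day 0.

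Condensin I folds chromosomes in mitosis, and its subunits Smc2, Smc4 and Ncapd2 had more of their day 0 level at day 3 than the median member in both genotypes. Ncaph had more in iKO cells and was near the median in Ctrl cells. Smc2, an ATPase that condensins I and II share, had 24.4 CPM in iKO cells against 26.6 CPM in Ctrl cells at day 3, and 120.1 CPM in iKO cells against 206 CPM in Ctrl cells at day 0, and it had 20.3% of its day 0 level in iKO and 12.9% in Ctrl cells. Smc4, its partner, had 28.2 CPM in iKO cells against 38 CPM in Ctrl cells at day 3, and 149 CPM in iKO cells against 273 CPM in Ctrl cells at day 0, and had 18.9% in iKO and 13.9% in Ctrl cells. Ncapd2, a subunit of condensin I, had 48.8 CPM in iKO cells against 68.5 CPM in Ctrl cells at day 3, and 323 CPM in iKO cells against 541 CPM in Ctrl cells at day 0, and had 15.1% in iKO and 12.7% in Ctrl cells. The median over the 54 genes was 8.16% in iKO and 5.72% in Ctrl cells. Ncapg, another subunit, 1.54-fold (1.12 to 2.12) lower in iKO cells at day 3, had 5.49% in iKO and 4.63% in Ctrl cells, below that median. Ncaph had 13.2 CPM in iKO cells against 9.998 CPM in Ctrl cells at day 3, and 117 CPM in iKO cells against 173 CPM in Ctrl cells at day 0, 1.32-fold (1.09 to 1.6) higher in iKO cells at day 3 and 1.48-fold (1.4 to 1.55) lower at day 0. It had 11.3% of its day 0 level in iKO and 5.78% in Ctrl cells. Of the subunits of condensin II alone, Ncapd3 was at 24.0 CPM in iKO cells and 31.2 CPM in Ctrl cells at day 3, and at 57.8 CPM in iKO cells and 92.4 CPM in Ctrl cells at day 0.

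Mki67 and Top2a were the highest members in CPM at day 0. Mki67, the antigen Ki-67 that coats mitotic chromosomes and marks cycling cells, had 43 CPM in iKO cells against 58.7 CPM in Ctrl cells at day 3. At day 0 Mki67 was at 533 CPM in iKO cells and 959 CPM in Ctrl cells. It was 1.37-fold (1.25 to 1.5) lower in iKO cells at day 3 and 1.8-fold (1.76 to 1.84) lower at day 0. Top2a, the topoisomerase that untangles sister chromatids, had 35.6 CPM in iKO cells against 40.4 CPM in Ctrl cells at day 3. At day 0 Top2a was at 422 CPM in iKO cells and 708 CPM in Ctrl cells. It was 1.14-fold (1.02 to 1.26) lower in iKO cells at day 3 and 1.68-fold (1.64 to 1.72) lower at day 0. Of the cytokinesis genes, Racgap1, of centralspindlin, had 20.7 CPM in iKO cells against 25.5 CPM in Ctrl cells at day 3. At day 0 Racgap1 was at 255 CPM in iKO cells and 427 CPM in Ctrl cells. Ect2, the exchange factor that activates RhoA at the cleavage furrow, had 8.53 CPM in iKO cells against 7.46 CPM in Ctrl cells at day 3. At day 0 Ect2 was at 74.7 CPM in iKO cells and 125 CPM in Ctrl cells. Anln, anillin, had 7.63 CPM in iKO cells against 7.96 CPM in Ctrl cells at day 3. At day 0 Anln was at 68.7 CPM in iKO cells and 105 CPM in Ctrl cells. Of these 3, Racgap1 had an interval below 1 at day 3, and all 3 had one at day 0. Cdca2, a targeting subunit of protein phosphatase 1 on chromosomes, was 1.81-fold (1.68 to 1.95) lower in iKO cells at day 0, with an interval that held 1 at day 3.

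**Figure D4:**
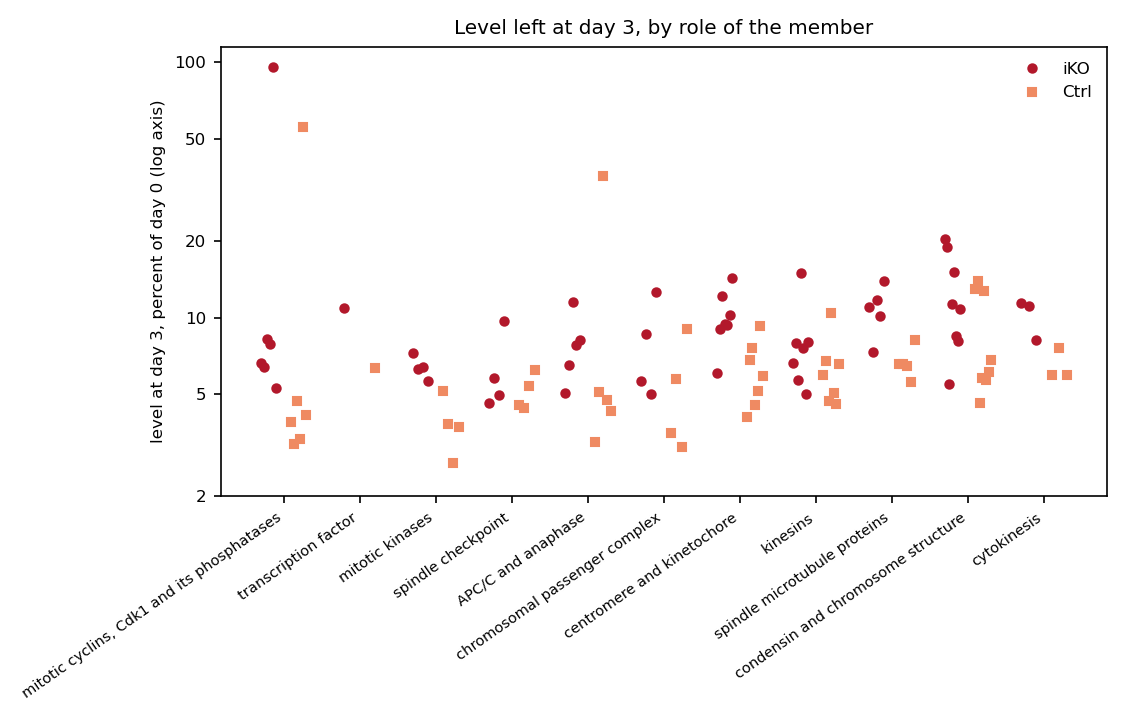
Level at day 3 as a percent of day 0 (log axis) for each member, grouped by role, with iKO cells as red circles left of Ctrl cells as orange squares. Without Cdc25b and Pttg1 the points lie between 4.63% and 20.3% in iKO cells and between 2.68% and 13.9% in Ctrl cells; above them are Cdc25b, at 96% in iKO and 55.9% in Ctrl cells, and Pttg1 in Ctrl cells, at 35.9%.

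On the log2 scale of CPM + 1 with TMM scaling, the ratio of iKO to Ctrl was higher at day 3 than at day 0 for all members but Pttg1. The log2 ratio of iKO to Ctrl at day 3 minus that at day 0 was above 0 for 53 of the 54 genes, and above 0 for 55.6% of all genes. For Ttk it was 0.07, and without the pseudocount its ratio was lower at day 3, at 1.75-fold (1.19 to 2.59) lower in iKO cells against 1.61-fold (1.48 to 1.75) lower at day 0. Its median was 0.61, beside 0.06 over all genes, and without Pttg1 and Cdc25b the median was also 0.61. It was at least 1 for Cdk1 (1.17), Spc25 (1.17) and Nek2 (1.10), as it was for 3.71% of all genes, and it was at most -1 for Pttg1 (-1.47), as it was for 5.5% of all genes. The same values give the difference between the genotypes in the change from day 0 to day 3, and the difference was not tested, since each group had 1 library. The count of 53 rests on TMM scaling and was not repeated under the alternatives. Library totals put the median ratio of all genes at 0.06 at day 0 and -0.09 at day 3, against -0.06 and -0.01. This lowers the value of every member, and those near 0 can fall below it. Relative to the medians of all genes the members were at -0.67 at day 0 and -0.12 at day 3, against -0.68 and -0.13 with TMM.

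Other genes of mitosis, listed beside the members, held 118 measured genes. At day 3 their median log2 ratio of iKO to Ctrl was -0.11, with 3 called higher and 2 lower, beside 6.27% and 4.76% of all genes. At day 0 it was -0.57, with 0 called higher and 2 lower, beside 2.67% and 0.331% of all genes. In that comparison 113 lay below 0, beside 56.5% of all genes. Day 3 over day 0 had a median of -1.57 in iKO cells, with 75 called lower and 1 higher, beside 11.4% and 11.2% of all genes. In Ctrl cells the median was -2.35, with 82 called lower, beside 15.1% of all genes. The 3 genes higher at day 3 were Psrc1, Gtse1 and Ckap2, of which Gtse1 and Ckap2 were named after their values were seen. Psrc1, a spindle protein whose gene is a p53 target, was at 91.6 CPM in iKO cells and 7.06 CPM in Ctrl cells at day 3, and at 194 CPM in iKO cells and 148 CPM in Ctrl cells at day 0. It was 13.0-fold (10.9 to 15.5) higher in iKO cells at day 3. Gtse1, which restrains p53 in G2, was at 37.2 CPM in iKO cells and 7.86 CPM in Ctrl cells at day 3, and at 159.6 CPM in iKO cells and 169.5 CPM in Ctrl cells at day 0. Ckap2, a cytoskeleton-associated protein of the spindle, was at 54.5 CPM in iKO cells and 16.3 CPM in Ctrl cells at day 3, and at 288.5 CPM in iKO cells and 314 CPM in Ctrl cells at day 0. The authors' deposited table for day 3 lists these genes at log2 ratios of 3.62 for Psrc1, 2.21 for Gtse1 and 1.66 for Ckap2.

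The lowest of the 118 at day 3 were Mad2l2, at 40.0 CPM in iKO cells and 110.5 CPM in Ctrl cells, and Depdc1b, at 0.742 CPM in iKO cells and 2.49 CPM in Ctrl cells. Lowest at day 0 were Depdc1b, with a log2 ratio of -1.05, and Kif22, a chromokinesin, with -1.003; highest were Psrc1 with 0.39 and Ensa with 0.11. Between days, Kif18b (-3.66) and Troap (-3.59) were lowest in iKO cells and Cenpm (-4.36) and Troap (-4.33) in Ctrl cells. At the other end were Lin52, of the MuvB core, and Numa1, a spindle pole and nuclear protein, with 1.44 and 0.40 in iKO cells, and Lin52 and Mad2l2 with 0.92 and 0.58 in Ctrl cells. The 27 genes of the APC/C, cohesin and condensin II had a median of -0.47 in iKO and -0.59 in Ctrl cells for day 3 over day 0. Called lower were 7 of them in iKO and 10 in Ctrl cells, beside 11.4% and 15.1% of all genes. Anapc1, a large APC/C subunit, was at 212 CPM in iKO cells and 218 CPM in Ctrl cells at day 3, and at 214 CPM in iKO cells and 279.7 CPM in Ctrl cells at day 0.

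**Figure D5:**
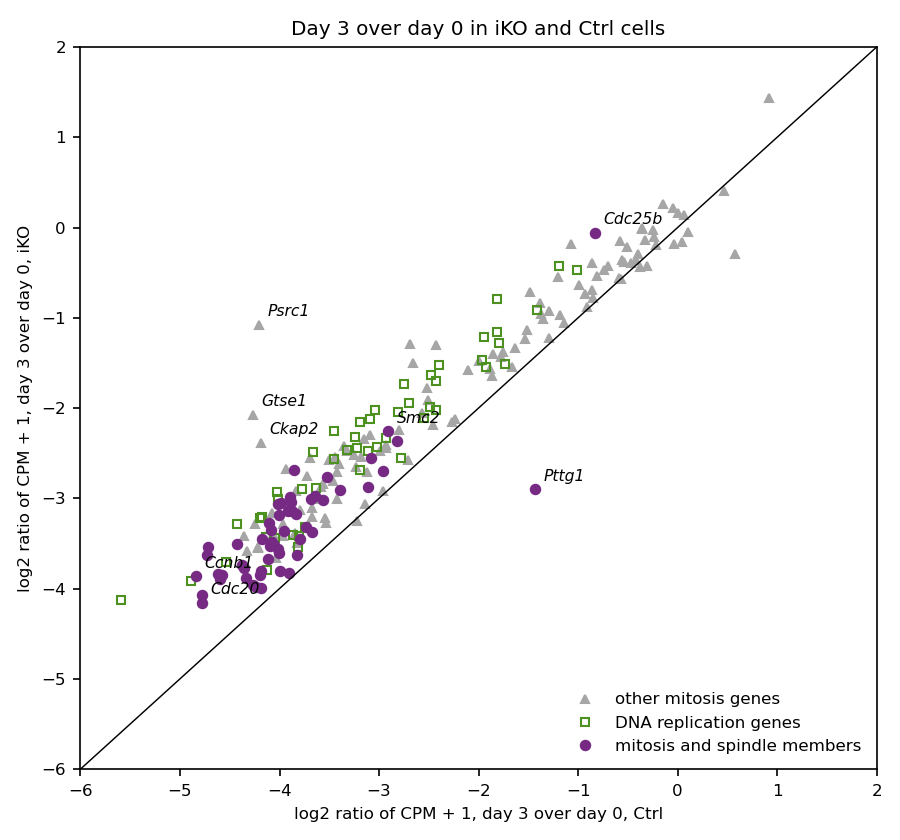
Log2 ratio of CPM + 1, day 3 over day 0, in iKO cells (vertical axis) against Ctrl cells (horizontal axis) for the members (purple), DNA replication genes (green squares) and other mitosis genes (grey triangles); the line marks equal ratios. All members lie below 0 on both axes and all but Pttg1 lie above the line, with Cdc25b at -0.06 in iKO and -0.83 in Ctrl cells, and Psrc1, Gtse1 and Ckap2 lie far above it.

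The 50 DNA replication genes, which act in S phase, were close to the members at day 0. Their median log2 ratio of iKO to Ctrl was -0.00 at day 3, with 26 genes below 0 and 0 called, and -0.75 at day 0, with all 50 below 0 and 3 called lower: Chaf1a (-1.02), Pole2 (-1.01) and E2f2 (-1.0, named after its value was seen). At day 3, 51.3% of all genes lay below 0, with 6.27% called higher and 4.76% lower. At day 0, 56.5% of all genes lay below 0, with 0.331% called lower. Day 3 over day 0 had a median of -2.38 in iKO cells, with 46 called lower, beside 11.4% of all genes. In Ctrl cells the median was -3.15, with 50 called lower, beside 15.1% of all genes. Tk1, thymidine kinase, was the lowest at -4.13 in iKO and -5.59 in Ctrl cells. Gins2 (0.58) and Ccne1 (0.57) were the highest of the list at day 3, and Gins1 and E2f7 (-0.51 each) the lowest. The day 3 minus day 0 value was at least 1 for 10 of the 50 genes, beside 3.71% of all genes, and above 0 for all 50, beside 55.6% of all genes.

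The CDK inhibitor Cdkn1a and many targets of p53 were higher in iKO cells on both days, while the other CDK inhibitors differed in direction. Cdkn1a, which encodes the CDK inhibitor p21, was at 578 CPM in iKO cells and 43.1 CPM in Ctrl cells at day 3, 13.4-fold (12.5 to 14.4) higher in iKO cells. At day 0 it was at 926 CPM in iKO cells and 513 CPM in Ctrl cells, 1.81-fold (1.76 to 1.85) higher in iKO cells. Of 22 p53 targets, 16 were called higher and 0 lower at day 3, with a median log2 ratio of 1.79, and 7 were called higher and 0 lower at day 0, with a median of 0.76. Of all genes, 6.27% were called higher and 4.76% lower at day 3, and 2.67% higher and 0.331% lower at day 0. The list holds Cdkn1a, Gtse1 and Psrc1. Of the 7 CDK inhibitors, 2 were called higher and 1 lower at day 3, with a median log2 ratio of 0.15. At day 0 none of the 7 was called, 5 lay below 0 and the median was -0.41; the 1 lower at day 3 was Cdkn1c, p57, at 5.72 CPM in iKO cells and 49.2 CPM in Ctrl cells. Of 11 G1 cyclins, CDK4/6 and pocket proteins, 2 were called higher at day 3 and 0 at day 0, among them Ccnd2, at 1127 CPM in iKO cells and 315 CPM in Ctrl cells at day 3. The part of these genes in the levels of the mitosis and spindle genes was not tested.

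Markers of other cell types also differed between the libraries. Beside the calls below, 6.27% of all genes were called higher and 4.76% lower at day 3, and 2.67% higher and 0.331% lower at day 0. The 10 astrocyte markers summed to 23404 CPM in iKO cells and 17057 CPM in Ctrl cells at day 3, and to 3431 CPM in iKO cells and 2205 CPM in Ctrl cells at day 0, with 1 called higher at day 3 and 4 at day 0. Of the 10 oligodendrocyte lineage markers 9 were compared, and the list summed to 3446 CPM in iKO cells and 4731 CPM in Ctrl cells at day 3, and to 4115 CPM in iKO cells and 4650.3 CPM in Ctrl cells at day 0. Most of that sum was Olig1, at 2717 CPM in iKO cells and 2814 CPM in Ctrl cells at day 3. Of the 9 genes, 7 were called lower in iKO cells at day 3, with a median log2 ratio of -1.54, and 4 at day 0, with a median of -0.76. The 8 neuronal markers summed to 923 CPM in iKO cells and 1714 CPM in Ctrl cells at day 3, and to 966 CPM in iKO cells and 1071 CPM in Ctrl cells at day 0. Most of that sum was Map2, at 871 CPM in iKO cells and 1459 CPM in Ctrl cells at day 3, and at 791 CPM in iKO cells and 879 CPM in Ctrl cells at day 0. Of the 8 genes, 4 were called lower and 0 higher in iKO cells at day 3, with a median log2 ratio of -1.06. At day 0, 1 was called higher and 0 lower, 6 lay above 0 and the median was 0.44, so the sum and the median differ in sign. Ependymal markers, of which 2 of 4 in the files were compared, summed to 271 CPM in iKO cells and 69.8 CPM in Ctrl cells at day 3, and to 107 CPM in iKO cells and 51.9 CPM in Ctrl cells at day 0. Fibroblast and mural markers (5 of 9 compared) summed to 43.6 CPM in iKO cells and 114 CPM in Ctrl cells at day 3, and to 143 CPM in iKO cells and 129 CPM in Ctrl cells at day 0. Most of that sum was Cspg4, which the oligodendrocyte lineage list also holds, so this sum says little of fibroblasts or mural cells. Cspg4 was at 33.6 CPM in iKO cells and 99.7 CPM in Ctrl cells at day 3. At day 0 Cspg4 was at 123 CPM in iKO cells and 121 CPM in Ctrl cells. Microglial markers (2 of 9 compared) summed to 46.3 CPM in iKO cells and 30.5 CPM in Ctrl cells at day 3, and to 32.7 CPM in iKO cells and 26.0 CPM in Ctrl cells at day 0, with Aif1, C1qa and C1qb at 0 in 3 of the 4 libraries. Endothelial markers (0 of 6 compared) summed to 1.69 to 4.03 CPM. The part of the cell makeup in the levels of the mitosis and spindle genes was not tested.

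The reads of some members can be shared with another gene. Of the 54 members, 9 overlap in RefSeq another gene of the files, among them Ccna2 (Exosc9), Cdc20 (Elovl1), Kif20a (Brd8 and Cdc23), Aurka (Cstf1) and Prc1 (Rccd1), and whether counting used strand is not given in the sources that were used. Ccnb1, Ccnb2 and Kif4 each have an annotated pseudogene that is not among the genes analysed here, and values of these 12 genes are less certain for that reason.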

How the data were processed

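Total RNA of 4 libraries was sequenced, 1 library per group, and grouped by the labels. The deposited tables give, per the file headers, an expected count and an expression value for each of 55122 RefSeq transcripts; from its values the latter is FPKM, computed by the authors. The submitters' processing notes name HISAT, Bowtie2, StringTie and mm10, without versions. The deposited comparisons hold the authors' log2 ratios and FDR values (adjusted p-values); the day 0 table ends in a value that is cut short.

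Expected counts were summed per Entrez gene, rounded to whole numbers for intervals, and scaled by TMM in edgeR 4.0.16 (R 4.3.3). Ratios of CPM + 1 were formed for the 12976 genes whose mean was 1 CPM or more; 4645 genes were left out. With 1 library per group no test was made, and called means at least 2-fold. Exact 95% intervals (scipy 1.17.1) cover counting error of libraries with 19611788 to 21040590 counts. The calculation was tested on simulated data. The alternatives were library totals, DESeq2 1.42.0 size factors, TMM without cell cycle genes, pseudocounts of 0.1 and 5 CPM, no minimum, a minimum of 5 CPM, FPKM and the most abundant transcript.

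The members, the lists and the rule for named genes were chosen with earlier results of these data known. The rule names set members of each role, the 3 highest and 3 lowest members of each comparison, members with a sign opposite to the median, and, beside them, Seh1l, Cdkn1a, Psrc1 and the 2 highest and 2 lowest genes of other lists, of which a part is given.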

Additional observations from a re-analysis of the deposited data

Results flagged for a closer look

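For 6 of the 54 genes the counting interval of the ratio of iKO to Ctrl lay above 1 at day 3 and below 1 at day 0. All 54 lay below 1 at day 0, beside 39.5% of all genes, so these are the 6 members above 1 at day 3. Above 1 at day 3 were 34.5% of all genes, and the share of all genes with both was not computed. The log2 ratio at day 3 minus that at day 0 was 0.98 for Ccnb1, 1.17 for Cdk1, 0.77 for Cdc25b, 1.17 for Spc25, 0.83 for Hmmr and 0.93 for Ncaph. The difference was not tested, since each group had 1 library. At day 3 the log2 ratio of each of the 6 was above 0 under all 9 alternatives tried, the lowest being 0.06 for Cdc25b with library totals. The 6 genes were picked by their day 3 values, and the alternatives rework the same libraries, so this gives no independent support. A change of the minimum cannot alter the ratio of a gene.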

How the results depend on the processing

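No paired analysis was made because each group had 1 library, so the groups share only 1 replicate number, and no replicate could be left out. A fit that takes the 2 days as replicates of a genotype was not made. None of the values tried under the 9 alternatives was reversed among the called values; 106 summary values stayed within the limits set and 22 moved. At day 0 the median log2 ratio of iKO to Ctrl was -0.61 with library totals and -0.59 with FPKM, against -0.73. With the most abundant transcript alone, 8 members were called lower and 3 higher at day 3, beside 917 and 1046 of the 12976 genes compared. At day 0, 2 members were called lower with that setting, beside 352 of those genes. Day 3 over day 0 had a median of -2.83 with a pseudocount of 5 CPM and -3.23 with FPKM in iKO cells, and of -3.485 and -3.67 in Ctrl cells. The summed level in iKO and Ctrl cells at day 3, then iKO and Ctrl cells at day 0, was 628, 748, 6894 and 10532 CPM with library totals, 202, 247, 2388 and 3601 in FPKM, and 447, 496, 5159 and 8639 CPM with the most abundant transcript; with TMM without cell cycle genes it was 6677 CPM in iKO cells at day 0. Library totals put the median of all genes at 0.06 at day 0, against -0.06, and at -0.13 for day 3 over day 0 in iKO cells, against -0.01; relative to it the members were at -0.67 and -3.44, against -0.68 and -3.44. Of all genes called between days in iKO cells, 49.6% were higher, against 39.7% with library totals and 38.7% with FPKM. With 36 counts for the lowest member at day 3, small ratios there were not detectable.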
